A study of Mus musculus with 6 samples.

Results

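mmu-miR-9-5p and mmu-miR-9-3p, here called miR-9-5p and miR-9-3p, are the mature microRNAs (miRNAs) cut from the opposite arms of the miR-9 hairpin. They were 2 of the 707 miRNA names counted in exosomes, small vesicles that cells release, from the culture supernatant of mouse bone marrow-derived macrophages. The pair was chosen by name from the series' count table because earlier results of the same data showed it lower in Roquin-1 san:san libraries, so its counts, its fold and its arm ratio are given below as a description, with no test. The groups were 3 WT libraries and 3 Roquin-1 san:san libraries, and all 6 came from the C57BL/6 strain. Roquin-1 binds messenger RNAs and speeds up their decay. The san (sanroque) variant is a mutant allele of it that gives mice a lupus-like disease. The labels give no age or treatment of the mice or cells, and do not say whether replicates were separate mice or cultures, so any spread between replicates may be technical. Exosomes were compared in bulk, and fewer vesicles that carry a miRNA cannot be told apart from less of it per vesicle.

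miR-9 is best known from the nervous system, where it is abundant in neural progenitors and helps set the balance between their division and differentiation. In monocytes and neutrophils it is among the miRNAs that Toll-like receptor signalling induces through NF-kappaB, and the messenger RNA of the NF-kappaB subunit NFKB1 is a known target. A miRNA guides the silencing complex mainly through its seed, bases 2 to 8, so the arms of a hairpin have different targets. The 3p arm of miR-9 is also written miR-9*, and REST and its corepressor CoREST are known targets of the 5p and the 3p arm, respectively.

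The mature sequences show why the arms are separate regulators and yet mirror one another. They are from RefSeq (build GRCm38.p6), 5′ to 3′, with the seed in capitals.
miR-9-5p: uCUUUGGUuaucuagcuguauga
miR-9-3p: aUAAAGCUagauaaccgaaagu
The arms share no seed. RefSeq sequences were matched for 573 of the 707 names, and 0 of the other matched names carried either seed. In the duplex the arms pair without a break over 12 bases, positions 6 to 17 of the 5p arm and 5 to 16 of the 3p arm, in capitals here.
miR-9-5p: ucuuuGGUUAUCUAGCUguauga
miR-9-3p: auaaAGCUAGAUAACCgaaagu
The GC content was 34.8% for the 23 bases of miR-9-5p and 31.8% for the 22 bases of miR-9-3p.

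Identical arms are encoded at 3 loci, whose hairpins are shown with both arms in capitals because they differ outside them.
Mir9-1: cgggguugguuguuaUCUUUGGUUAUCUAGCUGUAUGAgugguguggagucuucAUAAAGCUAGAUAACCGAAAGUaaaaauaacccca
Mir9-2: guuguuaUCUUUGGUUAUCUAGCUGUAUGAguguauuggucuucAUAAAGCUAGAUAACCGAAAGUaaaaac
Mir9-3: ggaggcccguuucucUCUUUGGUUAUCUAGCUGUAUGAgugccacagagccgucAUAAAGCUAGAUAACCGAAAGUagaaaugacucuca
In GRCm38.p6 they lie on the plus strand at chr3:88215598-88215686 (Mir9-1), chr13:83738814-83738885 (Mir9-2) and chr7:79505264-79505353 (Mir9-3). The submitters' processing notes name mm9, and no coordinates of reads were used here. In the GENCODE M21 annotation each hairpin lies inside a long non-coding RNA gene of the same strand. Mir9-1 was intronic in all 5 transcripts of Gm3764 that cross it, and Mir9-3 in all 4 of Mir9-3hg. Mir9-2 overlapped an exon in 2 of 3 transcripts of C130071C03Rik and was intronic in the other. Since the arms are the same letter for letter at the 3 loci, a count of miR-9 cannot be assigned to one of them. RefSeq also lists miR-9b on the opposite strand of these loci, and miR-9b-5p and miR-9b-3p each share 12 bases in a row with the miR-9 arm of the same side. miR-9b was not analysed here, and how near-matching reads were counted is not given in the sources used here.

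Depth differed between the genotypes and bears on every value. Totals ran from 12447 to 28884 counts in the WT libraries and from 126098 to 185901 in those of san:san. A single count was worth 27.7 to 69.5 CPM in WT and 6.31 to 10.2 CPM in san:san, where CPM is counts scaled to a fixed library total, here adjusted by the trimmed mean of M-values (TMM). Intervals below are exact 95% intervals that cover counting error only. Macrophage and myeloid marker miRNAs were present in all libraries, at 5.56% to 6.60% of all counts in WT and 10.9% to 12.3% in san:san. Erythroid markers took 3.84% to 6.25% and 15.6% to 17.9%, respectively. That sum holds both miR-486a-5p and miR-486b-5p, whose counts are identical in every library (972 in WT and 26183 in san:san for each name). If these are the same reads under 2 names, the erythroid shares are overstated, and their size cannot be set against the myeloid shares. Endothelial markers took 1.82% to 3.69% in WT and 3.37% to 6.96% in san:san, and the lymphocyte marker miR-150-5p 0.408% to 0.492% and 1.38% to 1.92%. Whether other blood or vessel cells had a part in the miR-9 difference was not tested.

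miR-9-3p was the more abundant arm in WT exosomes and stood at a few counts in san:san. WT replicates 1, 2 and 3 held 34, 43 and 28 counts of it, against 2, 2 and 1 for san:san replicates 1, 2 and 3. The WT libraries held more counts of it although they were the shallower ones. In scaled units the WT values were 2364, 1193 and 1014 CPM, and those of san:san were 12.6, 15.1 and 10.2 CPM. The shallowest library, WT replicate 1, was the highest, at 0.273% of its counts (interval 0.189% to 0.381%), against 0.149% (0.108% to 0.201%) and 0.129% (0.0855% to 0.186%) in the other WT libraries. The WT mean was 1524 ± 733 CPM, against 12.6 ± 2.40 CPM for san:san (SD, n = 3 each). With counts summed over each genotype, 105 against 5, the level was 105-fold higher in WT (interval 43.5 to 329). With total counts in place of TMM scaling, the ratio was 157 (65.3 to 495).

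miR-9-5p showed the same order of the genotypes at lower WT counts. Its WT counts were 4, 17 and 14, and its san:san counts 2, 4 and 2. The raw counts touched, since WT replicate 1 and san:san replicate 2 had 4 each, but these libraries held 12447 and 160588 counts in all. Scaled, the WT values were 278, 472 and 507 CPM and those of san:san 12.6, 30.1 and 20.5 CPM. The counting intervals of those 2 libraries met only narrowly, at 75.8 to 712 CPM in WT replicate 1 and 8.20 to 77.0 CPM in san:san replicate 2. The means were 419 ± 123 CPM and 21.1 ± 8.76 CPM (SD, n = 3 each). Summed over libraries, 35 WT counts against 8 san:san counts gave a ratio of 21.8 (9.94 to 54.5), or 32.8 (14.9 to 81.8) with total counts.

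**Figure D1:**
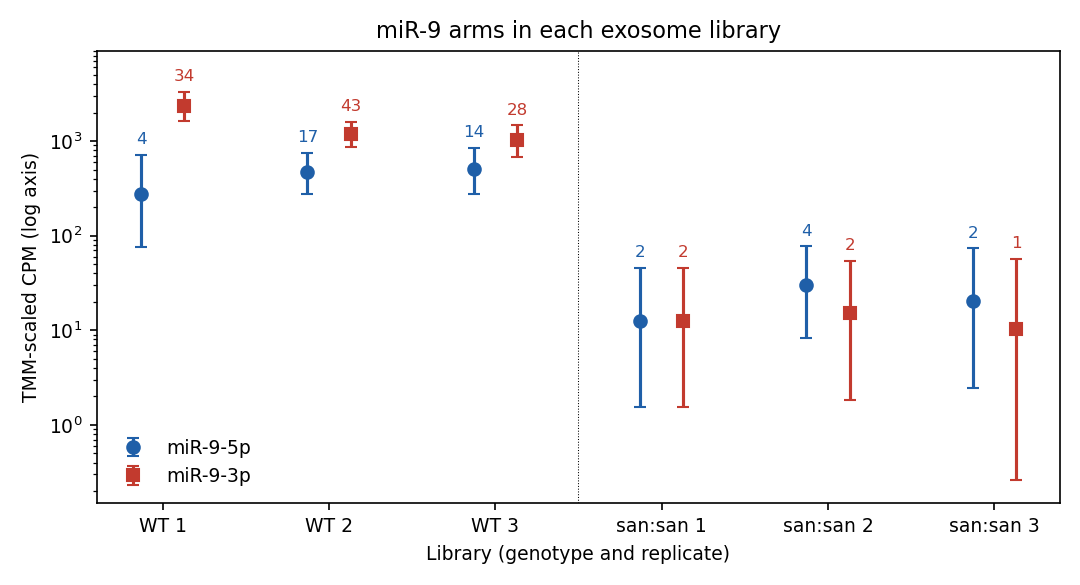
Level of each miR-9 arm in each library (TMM-scaled CPM, log axis), with exact 95% counting intervals as bars and the raw count above each bar. The WT values lie between 278 and 2364 CPM and the san:san values between 10.2 and 30.1 CPM.

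Neither arm was at 0 in the san:san libraries, since each had at least 1 count in each of the 3. At 1 to 4 counts per library, whether these came from miR-9 in the vesicles or from near-matching reads was not tested. The size of the difference is plainest as counts. Had miR-9-3p held its WT share of all counts, the san:san libraries would have held 309, 267 and 210 counts of it, where 2, 2 and 1 were counted. For miR-9-5p the same sum gives 103, 89.1 and 70.0 counts, where 2, 4 and 2 were found. At the WT level in TMM units, which gives WT less weight, 131 to 213 counts of miR-9-3p and 43.8 to 71.1 of miR-9-5p would have been present. Names were also ranked by counts within a library, with tied names given the best position they share. Names with any count numbered 337 to 460 in WT and 465 to 520 in san:san, and many names tie at low counts. miR-9-3p stood between position 53 and 88 of the 707 names in WT and between 360 and 392 in san:san. miR-9-5p moved from positions 134 to 166 in WT to 314 to 389 in san:san.

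**Figure D2:**
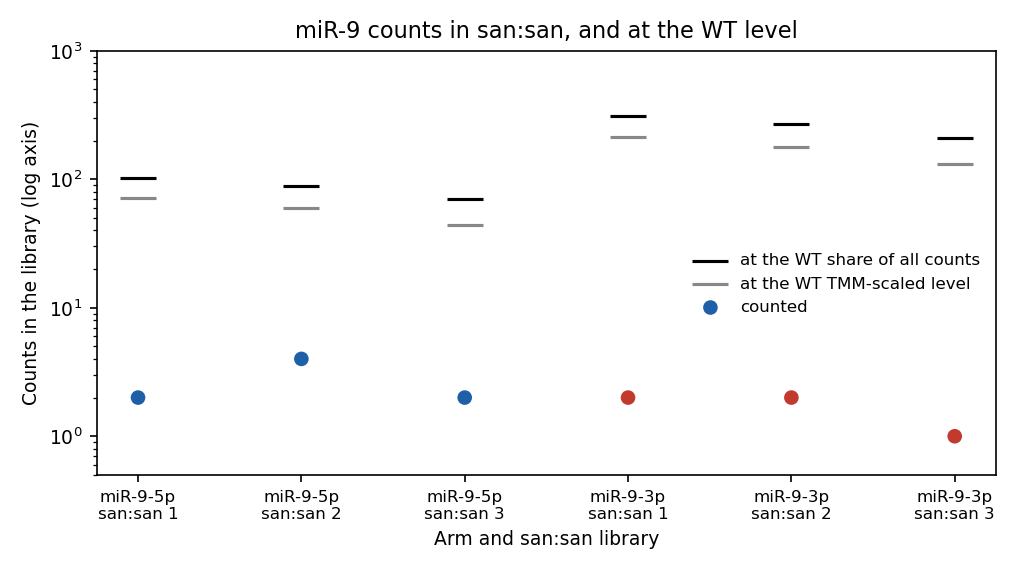
Counts of each miR-9 arm in the san:san libraries (coloured points, log axis) beside the counts each library would hold at the WT share of all counts (black lines) or at the WT level in TMM units (grey lines). The counted values are 1 to 4, against 43.8 to 309 at the WT level.

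Across the table, edgeR's quasi-likelihood test called 75 of 254 tested miRNAs lower in san:san (29.5%) and 88 higher (34.6%) at an adjusted p under 0.05. Both arms passed the filter on low counts through their WT libraries, and both were among the 75. That count follows from how the pair was chosen and is read no further. By edgeR's log2 change, miR-9-3p (-6.63) was the 4th lowest of the 254 and miR-9-5p (-4.31) the 21st, where the median of all tested miRNAs was 0.30. On the same 254 miRNAs the split of calls moved with the scaling, to 76 higher and 86 lower in edgeR with RLE factors (median 0.043) and 49 and 101 with total counts (median -0.29). DESeq2, which also differs in its test and filter, called 62 higher and 104 lower of 419 miRNAs.

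miRNAs with about as many WT counts as miR-9 usually had far more raw counts in san:san than miR-9 did. The libraries summed to 63085 counts in WT and 472587 in san:san, so more counts need not mean a higher level. At an unchanged share of all counts, the 105 WT counts of miR-9-3p correspond to 787 in san:san, and the 35 of miR-9-5p to 262. Of 40 tested miRNAs within 1.5-fold of the 105 WT counts of miR-9-3p, 0 had as few as its 5 san:san counts. Their san:san counts ran from 12 to 1576, with a median of 355.5. Around the 35 WT counts of miR-9-5p, 6 of 52 had 8 or fewer san:san counts, and the median was 235. Since the pair was chosen for its low san:san level, its place among these miRNAs follows from the choice and is read no further. miR-103-3p, a widely expressed miRNA linked to insulin signalling, also had 105 WT counts in all, and 672 in the san:san libraries. miR-140-3p, from a cartilage-rich hairpin, had 110 and 943, and the minor arms let-7a-1-3p and let-7c-2-3p, whose counts are identical, had 103 and 408. Next to miR-9-5p, miR-192-5p of liver and gut (35 and 373) and miR-22-5p (35 and 204) had more san:san counts, miR-669c-5p had 34 and 51, and miR-1249-5p, with 34 and 2, had fewer. Scaled for depth, edgeR's log2 changes were 0.38 for miR-103-3p, 0.87 for miR-140-3p and -0.35 for each of the let-7 arms. They were 1.09 for miR-192-5p, 0.26 for miR-22-5p, -1.725 for miR-669c-5p and -5.99 for miR-1249-5p.

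**Figure D3:**
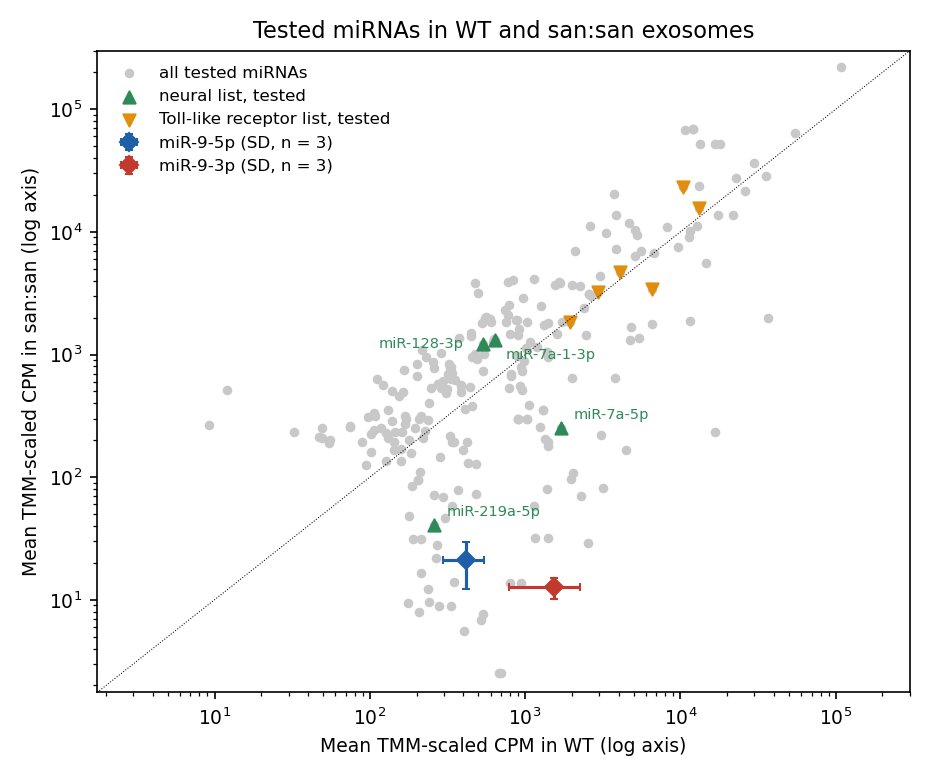
Mean TMM-scaled CPM of each tested miRNA in WT (x, log axis) and san:san (y, log axis), with both miR-9 arms (bars are SD, n = 3) and the tested members of the neural and Toll-like receptor lists. miR-9-3p and miR-9-5p lie far below the dotted line of equal levels, at 1524 and 12.6 CPM and at 419 and 21.1 CPM, and 1 miRNA at 0 in san:san is not drawn.

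The balance of the arms also differed between genotypes, within the limits of 13 san:san counts. In WT the 3p arm outnumbered the 5p arm in all 3 libraries. The 5p arm made up 4 of 38, 17 of 60 and 14 of 42 miR-9 counts there, or 10.5% (interval 2.94% to 24.8%), 28.3% (17.4% to 41.4%) and 33.3% (19.6% to 49.5%). In san:san it made up 2 of 4, 4 of 6 and 2 of 3 counts. Each of those libraries alone is nearly uninformative, as the interval of 6.76% to 93.2% for san:san replicate 1 shows. Summed, the 5p share was 25.0% in WT (18.1% to 33.0%) and 61.5% in san:san (31.6% to 86.1%), and these intervals overlap narrowly. The means over libraries were 24.1% ± 11.99 and 61.1% ± 9.62 (SD, n = 3 each). Put as a ratio, WT held 3 counts of the 3p arm for each count of the 5p arm, and san:san 0.625.

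Some other hairpins shifted by as much as the miR-9 estimate, which rests on few counts. Of 198 hairpins with both arms named, 131 had at least 10 counts over both arms in each genotype. The 5p share of miR-9 rose by 36.5 percentage points, on 13 san:san counts (interval of the san:san share 31.6% to 86.1%). The 4 hairpins closest to miR-9 in WT counts had 220 to 1757 san:san counts. The miR-9 values were known when the pair was chosen, so its place among the hairpins is a description and is read no further. Among the other 130 hairpins the median size of the shift was 4.36 points, and 12 moved by at least as much in either direction, 6 of them toward the 5p arm. The larger arm changed sides in 11 of the 130. miR-149 was the most extreme toward the 5p arm, from 8 of 54 counts in WT to 59 of 60 in san:san, and miR-1249 went the other way, from 34 of 37 to 2 of 20. Of the hairpins closest to miR-9 in WT counts, miR-145a (97.8% in both genotypes) and miR-425 (82.8% and 83.1%) kept their 5p share to within 0.338 points. miR-98 went from 92.3% to 72.0% and miR-674 from 73.9% to 31.4%.

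**Figure D4:**
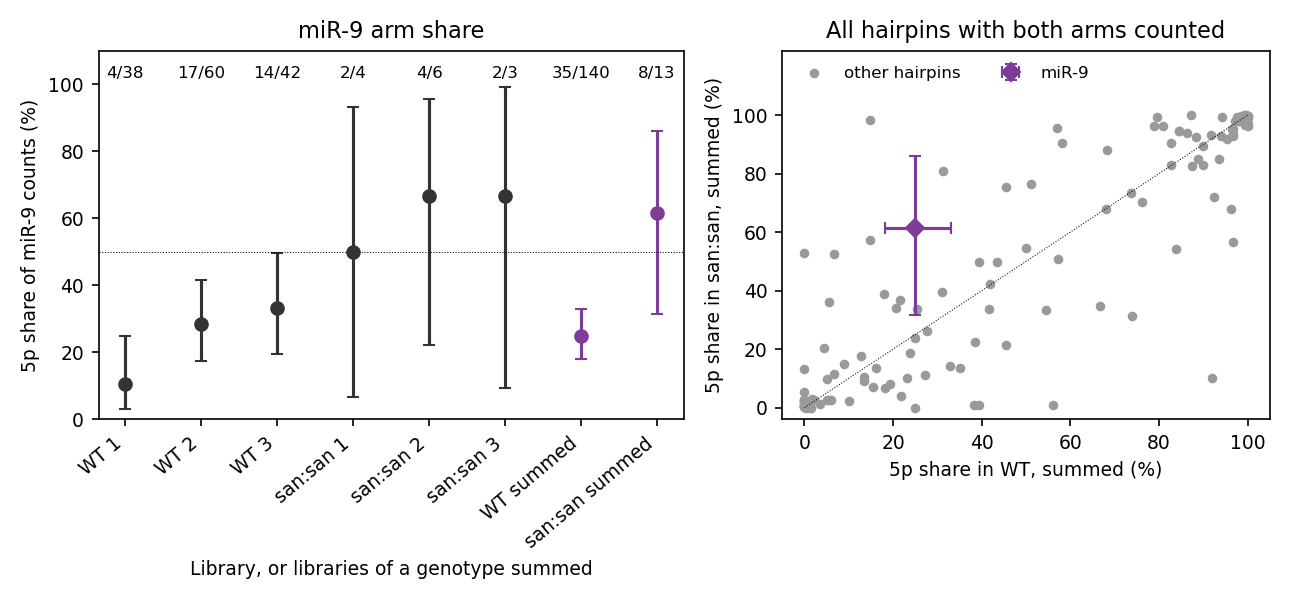
Left, 5p share of miR-9 counts (%) in each library and summed by genotype, with exact 95% intervals and the 5p count over the count of both arms above. Right, summed 5p share in WT (x) and san:san (y) for miR-9, with its intervals, and 130 other hairpins; miR-9 lies above the line of equal shares at 25.0% and 61.5%.

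Profiles over the 6 libraries show which miRNAs followed each arm most closely. Likeness was measured as the root mean square difference between log2 profiles, each centred on its own mean, so that a smaller value means a closer profile. The arms differed from each other by 1.33, which made miR-9-3p the 60th closest of the tested miRNAs to miR-9-5p, and miR-9-5p the 26th closest to miR-9-3p. Both ranks are on the near side of the medians over all tested miRNAs, 2.24 for miR-9-5p and 3.36 for miR-9-3p. miR-9-5p was closest to miR-30c-1-3p (0.261), a minor arm whose WT counts were 3, 13 and 13 and whose san:san counts were 1, 2 and 2. Next came miR-139-3p (0.375), miR-125a-3p (0.407), the Hox-cluster miRNA miR-196b-5p (0.443) and miR-193a-5p (0.491). miR-9-3p was closest to miR-149-3p (0.298), whose WT counts were 16, 19 and 11 and san:san counts 0, 1 and 0. It was followed by miR-3473f (0.422), miR-23a-5p (0.431), miR-3960 (0.658) and miR-3473b (0.689). These names were picked for their likeness to a pair already known to be low in san:san, so that their own san:san levels are low follows from the choice.

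Other neural miRNAs moved in both directions, and few could be tested. Of 20 arms on the neural list with counts in the table, 4 were deep enough to test, and edgeR called 2 lower and 2 higher, against 29.5% and 34.6% of all tested miRNAs. Their median log2 change was -0.68, against 0.30 for all, and 4 arms are too few to describe the group. miR-7a-5p, found in neuroendocrine cells and brain, had WT counts of 29, 60 and 39 and san:san counts of 32, 39 and 26, similar numbers from libraries of very unequal depth. It fell by 2.72 ± 0.25 on the log2 scale (SE, edgeR adjusted p = 8.67e-07), while an arm of the same hairpin family, miR-7a-1-3p, rose by 1.12 ± 0.26 (adjusted p = 0.00187). miR-219a-5p, a miRNA of oligodendrocytes, had WT counts of 6, 4 and 7 and san:san counts of 3, 7 and 5, and fell by 2.48 ± 0.61 (edgeR adjusted p = 0.00257). With any 1 of the san:san libraries left out it no longer passed the filter. miR-128-3p, abundant in neurons, had WT counts of 8, 26 and 9 and san:san counts of 183, 148 and 138, and rose by 1.16 ± 0.29 (edgeR adjusted p = 0.00317). The calls of miR-128-3p and miR-7a-1-3p ended with total counts (adjusted p = 0.107 and 0.102), and that of miR-7a-1-3p also without WT replicate 2 (0.05002). The 16 untested arms summed to between 0 and 5 WT counts and between 1 and 29 san:san counts.

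Summed levels depend on which neural miRNAs are counted and on the scaling, and those below are shares of total counts. All 20 arms of the neural list together took 0.386% to 0.466% of all counts in WT and 0.246% to 0.265% in san:san. The effective library size under TMM was 1.155 to 1.269 times total counts in WT and 0.774 to 0.853 times in san:san. TMM scaling therefore lowers WT levels and raises those of san:san, and the sums were not compared in TMM units. miR-7a-5p alone gave 128 of the 258 WT counts in that sum and 97 of the 1208 san:san counts. The 5 neural markers with counts (miR-128-3p, miR-138-5p, miR-219a-5p, miR-129-5p and miR-132-3p) took 0.0965% to 0.114% of all counts in WT and 0.110% to 0.123% in san:san. That sum, too, is a share of total counts and would move with TMM scaling. It leaves out miR-7a-5p and is mostly miR-128-3p, which made up 43 of its 68 counts in WT and 469 of its 537 in san:san. miR-219a-5p, lower in san:san, gave 17 and 15 of them. Both miR-9 arms together took 0.193% to 0.305% in WT and 0.00215% to 0.00374% in san:san. In counts the pair held 140 in WT and 13 in san:san. miR-124-3p, miR-137-3p and miR-153-3p, also on the marker list, were not analysed here.

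Among Toll-like receptor-induced miRNAs, the other group to which miR-9 belongs, most of those tested were not called. Of 12 names 6 were tested: edgeR called 1 higher and 1 lower and 4 did not pass, against the same 34.6% and 29.5%, and the median log2 change was 0.18 against 0.30. These 6 are too few to describe the group. miR-21a-5p, a broadly induced miRNA of activated myeloid cells, rose by 1.15 ± 0.21 on the log2 scale (SE, edgeR adjusted p = 3.19e-04). let-7e-5p fell by 0.93 ± 0.20 (edgeR adjusted p = 0.00114). miR-146a-5p, a brake on the same receptors, stood at 0.26 ± 0.25 (edgeR adjusted p = 0.363), or at 0.49 with an adjusted p of 0.0288 without WT replicate 1 and at -0.30 with total counts. Neither miR-146b-5p (0.15) nor miR-125a-5p (0.21) nor miR-99b-5p (-0.12) passed, although miR-99b-5p was lower with total counts (-0.72, edgeR adjusted p = 0.0196). miR-155-5p, induced by the same signals, was too low to test, at WT counts of 1, 7 and 1 and san:san counts of 15, 13 and 3.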

How the data were processed

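Small RNA libraries from 6 samples were used, grouped by the sample titles. The labels' protocols name Trizol extraction and miRNA libraries, and also an mRNA library kit. The submitters' processing notes name the build mm9. Aligner, trimming and miRNA annotation: not given in the sources used here. Values came as a series table of raw counts for each mature name, deposited by the authors, and, per sample, a column named TPM that sums to over 1000000 and was treated as a scaled signal. Recovered to whole reads (within 0.5), the deposited signal equalled the counts in all but 1 of 4242 values, and in every value of miR-9. Columns of no listed sample numbered 0.

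Counts were tested with edgeR 4.0.16 (R 4.3.3), quasi-likelihood, filterByExpr at a minimum count of 10, TMM scaling, a genotype term alone and p-values adjusted by Benjamini-Hochberg across 254 miRNAs, which held 98.2% to 99.3% of each library. The filter's kept rows set the TMM factors used for CPM. Ratios of summed counts carry exact conditional binomial intervals, counts Poisson intervals and shares Clopper-Pearson intervals, computed with scipy 1.17.1. The SE given with an edgeR log2 change was derived from the test, as the size of the change over the square root of its F statistic. Likeness used a prior count of 0.5. The edgeR script was tested on simulated counts. Alternatives were other scalings, no filter, DESeq2 1.42.0, merged identical rows, a replicate block and leaving out each library.

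The members, lists and tests were chosen with earlier results of these data known. Named besides the arms are the members of the neural list, tested members of the Toll-like receptor list, the 5 closest profiles and 4 neighbours in WT counts of each arm, and the 4 hairpins closest in WT counts. miR-149 and miR-1249 as hairpins and miR-155-5p were named after their values were seen. No replicates were counted as duplicates, since chi-square per degree of freedom between replicates was 3.18 or more.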

Additional observations from a re-analysis of the deposited data

How the results depend on the processing

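In log2 units the WT over san:san ratio of miR-9-5p was 4.45 and that of miR-9-3p 6.71. With total counts they were 5.03 and 7.30, and from the deposited per-sample columns the miR-9-3p ratio was 7.44. Leaving out 1 library gave 4.12 to 4.82 and 6.52 to 6.94. The remaining scalings, merged rows and equal weights moved either ratio by less than the SD between replicates. The 5p share of miR-9 was 21.4% to 30.4% in WT and 57.1% to 66.7% in san:san with 1 library left out. With total counts 49 miRNAs were called higher in place of 88. Under the replicate block 90 were higher and 71 lower. Same-numbered libraries did not deviate together in every pair (correlations 0.08, -0.05 and 0.23 across miRNAs), so the numbers were not taken as pairing. For 28 other named miRNAs, 357 of 383 values under alternatives kept direction and call, 8 lost it, 4 gained it and 14 changed sign. The sign changes, none of them in a called miRNA, were miR-103-3p (-0.21), miR-146a-5p (-0.30), miR-22-5p (-0.34), miR-125a-5p (-0.37) and miR-146b-5p (-0.43) with total counts; miR-125a-5p (-0.045) and miR-146b-5p (-0.11) with RLE factors; the same pair without the 5 most abundant miRNAs in the totals (-0.038 and -0.094); and miR-146b-5p in DESeq2 (-0.014). The others were miR-22-5p without san:san replicate 3 (range with 1 library left out -0.013 to 0.46) and miR-99b-5p without a filter (0.0071) and without WT or san:san replicate 2 (range -0.32 to 0.067). The cause was not tested. Depth limits the arm share, since 13 san:san counts carry it.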
